A study of Homo sapiens with 38 samples.

Results

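The transcripts described here are 29 genes of the p53 pathway, named as p53 targets or as genes that feed back on p53, and matched by symbol to the gene identifiers of the count table, and all 29 had a row among its 18011 genes. RNA was sequenced from 6 established human cell lines grown from diffuse large B-cell lymphomas: TOLEDO, PFEIFFER, OCILY1, WSUDLCL2, SUDHL4 and SUDHL6. Cells were kept with pracinostat, with vorinostat or with the solvent DMSO, for 6 h or for 14 days. Pracinostat and vorinostat, both of the hydroxamic acid class, block histone deacetylases, which remove acetyl marks from histones and many other proteins. No dose stands in the labels. The 6 h groups held 6 pracinostat, 5 vorinostat and 6 DMSO libraries, and SUDHL6 with vorinostat was not analysed here. The 14 day groups held 5 lines without SUDHL6, each with a pracinostat library, a vorinostat library and a DMSO library of each of a pair of sets titled DMSOP and DMSOV. Each drug at 14 days was set against the DMSO set whose title ends in the drug's initial, which is a reading of the titles. Both drugs at 6 h share the same DMSO libraries, so their fold changes at that time are not independent of each other. Deposited column names call the 6 h DMSO library DMSOV in SUDHL4, WSUDLCL2, SUDHL6 and OCILY1 and DMSOP in TOLEDO and PFEIFFER. At 6 h a drug was therefore set against the set of the other drug's initial in some lines, and set and line cannot be told apart. A line has 1 library at each treatment and time, and replication is therefore across lines. Whether libraries came from separate cultures is not stated, so p-values measure the spread between these libraries.

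p53 is a transcription factor that DNA damage and other stresses stabilise, and that binds a pair of short half-sites near its target genes. Its targets include its own inhibitors, which close a feedback loop, and genes that halt the cell cycle, repair DNA, restrain growth and metabolism or start cell death. Many of these targets also answer to other transcription factors. The series title asks how lymphoma lines differ in their sensitivity to histone deacetylase inhibitors, but the labels carry no measure of that sensitivity.

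Libraries held 3.19 to 8.92 M counts, so that a count of 0 allows up to 0.336 to 0.941 CPM, the count relative to the TMM-scaled library total, a floor of 3 counts that covers counting error only. The label of B-cell lymphoma was checked with 6 B-cell markers, all of which were detected in all 37 libraries, the lowest value being 47.8 CPM for CD79A. Summed T-cell markers reached at most 4.01 CPM, with CD3D at 0 in 29 libraries. Of 4 NK-cell markers NCAM1 and NKG7 had a row, and they summed to at most 18.2 CPM with pracinostat and 17.1 CPM with vorinostat at 14 days, against 0.897 CPM in DMSOP and 1.53 CPM in DMSOV. Of 4 epithelial markers 3 had a row, summing to medians of at most 0.437 CPM in every group, with single libraries as high as 103 CPM with pracinostat and 93.4 CPM with vorinostat at 14 days, against 284 CPM in DMSOP and 280.3 CPM in DMSOV; EPCAM, at 0 in 17 libraries, reached 270.4 CPM. The median share of mitochondrially encoded counts was 14.7% with pracinostat and 16.5% with vorinostat at 14 days, against 8.76% in DMSOP and 10.9% in DMSOV. Myeloid markers present in the table, CSF1R and ITGAM of a list of 7, summed to medians of 11.6 CPM with pracinostat (range 0.468 to 17.4) and 14.3 CPM with vorinostat (range 1.08 to 35.9) at 14 days, against 0.232 CPM in DMSOP (range 0 to 1.35) and 0.490 CPM in DMSOV (range 0 to 1.25). The fibroblast markers COL1A1 and PDGFRB, of a list of 4, summed to medians of 4.26 CPM with pracinostat (range 0.446 to 79.8) and 6.14 CPM with vorinostat (range 0.683 to 61.4) at 14 days, against 0.116 CPM in DMSOP (range 0 to 19.1) and 0.228 CPM in DMSOV (range 0 to 16.8). The part of these shifts in the results below was not tested.

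The pathway was unevenly expressed before any drug. Per kilobase of exon, and over the 16 DMSO libraries, BTG2 had the highest median level of the 29 genes, 90.1 CPM per kb (25.3 to 257), followed by CCNG1 with 38.8 (25.9 to 82.0) and RRM2B with 28.1 (10.4 to 55.6). BTG2 encodes a protein that slows cell division, CCNG1 a cyclin induced by p53 and RRM2B a subunit of ribonucleotide reductase that supplies DNA repair. These ranges overlap, so neighbours in the order are not separated by the spread among libraries. At the low end of the expressed genes were NINJ1 with 1.42, FAS with 1.09, SESN1 with 0.725 and TP53I3 with 0.644 CPM per kb. PLK2, PHLDA3, CMBL and SPATA18 had medians of 0 to 0.0121 CPM per kb and did not pass the filter on low counts, which left 25 of the 29 genes in these tests. Their highest values in any library were 6.50 CPM for PLK2, in OCILY1 with vorinostat at 6 h, 2.38 CPM for PHLDA3, in PFEIFFER with pracinostat at 14 days, 1.83 CPM for CMBL, in OCILY1 with pracinostat at 14 days, and 3.44 CPM for SPATA18, in SUDHL6 with pracinostat at 6 h.

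**Figure D1:**
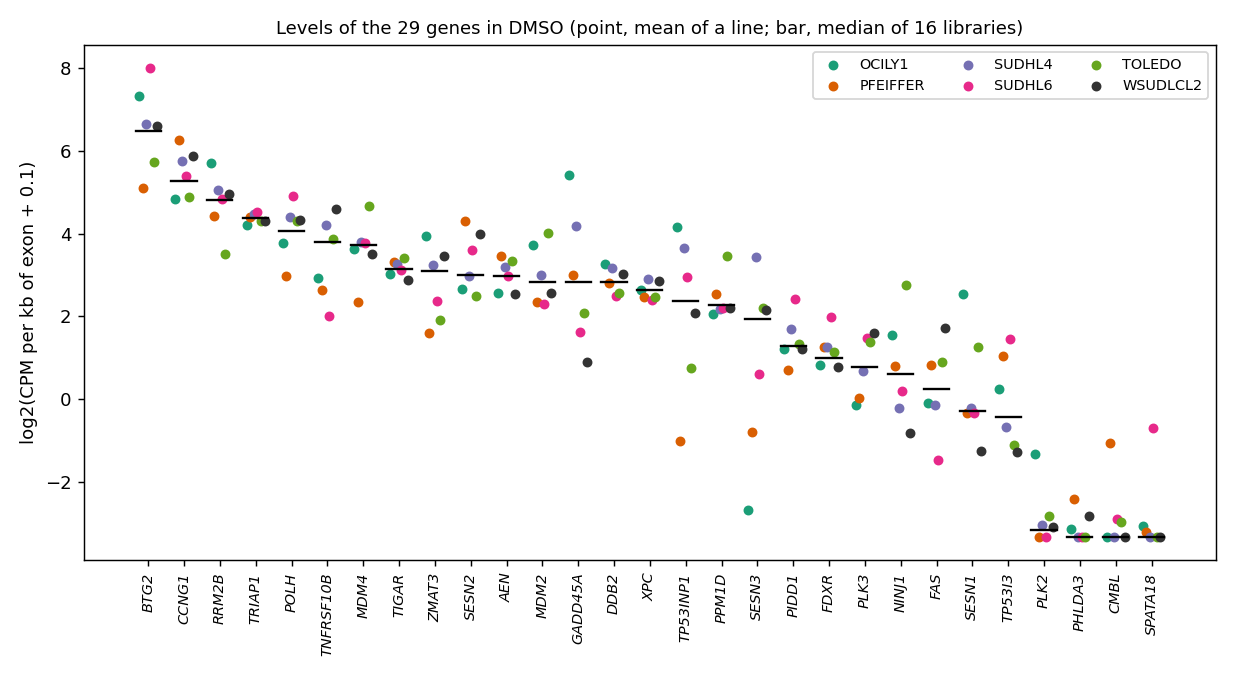
Levels of the 29 genes in DMSO, as log2 of CPM per kb of exon plus 0.1, ordered by the median of 16 libraries (bar); points are the mean of each line over its DMSO libraries, 3 for each line but SUDHL6, which has 1. BTG2 stands at the top with a median of 90.1 CPM per kb, and the spread among lines is wide for SESN3, GADD45A and TP53INP1.

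Lines differed in these levels. Tested over the 15 DMSO libraries of the 5 lines with both times, 21 of 25 genes differed among lines (edgeR's quasi-likelihood F test, adjusted p under 0.05), where 89.9% of all tested genes did. The smallest p-values belonged to GADD45A, a stress-induced brake on the cell cycle, and to SESN3 and SESN1, which encode sestrins, proteins that restrain the growth kinase mTOR. GADD45A in DMSO averaged 88.5 ± 19.4 CPM in OCILY1, 16.4 ± 3.21 in PFEIFFER, 37.7 ± 16.5 in SUDHL4, 8.55 ± 2.04 in TOLEDO and 3.63 ± 0.968 in WSUDLCL2 (SD, n = 3 each). Its adjusted p for differences among lines was 1.9e-12 with edgeR. SESN3 averaged 0.602 ± 0.522 CPM in OCILY1, 5.01 ± 0.655 in PFEIFFER, 114 ± 20.3 in SUDHL4, 47.3 ± 5.21 in TOLEDO and 46.0 ± 11.1 in WSUDLCL2 (SD, n = 3 each), with an adjusted p of 2.57e-12 from edgeR. SESN1 ran the other way in OCILY1, with 29.3 ± 5.41 CPM there, 3.54 ± 0.0991 in PFEIFFER, 3.90 ± 0.763 in SUDHL4, 11.8 ± 3.34 in TOLEDO and 1.62 ± 0.103 in WSUDLCL2 (SD, n = 3 each), and an adjusted p of 1.06e-10 from edgeR. OCILY1 thus held the lowest SESN3 and the highest SESN1 and GADD45A levels of the 5 lines. The 4 genes that did not pass this test were TIGAR, FDXR, PIDD1 and TRIAP1, whose adjusted p-values from edgeR ran from 0.0594 to 0.384.

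The promoters of 4 members are shown because each holds a stretch that reads as a p53 half-site and because these genes did different things with the drugs. SESN1 and FDXR rose at 6 h, AEN fell at 6 h and DDB2 fell at 14 days with pracinostat. Each sequence is a RefSeq window (GRCh38.p14) of 250 bases before to 50 bases after a transcript start, read 5′ to 3′ on the gene's strand, with the half-site in capitals.
DDB2: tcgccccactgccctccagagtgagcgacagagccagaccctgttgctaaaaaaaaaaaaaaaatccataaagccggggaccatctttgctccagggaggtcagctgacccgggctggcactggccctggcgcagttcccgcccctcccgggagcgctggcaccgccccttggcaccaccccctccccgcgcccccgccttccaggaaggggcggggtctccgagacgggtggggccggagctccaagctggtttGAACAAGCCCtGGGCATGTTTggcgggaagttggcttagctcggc
FDXR: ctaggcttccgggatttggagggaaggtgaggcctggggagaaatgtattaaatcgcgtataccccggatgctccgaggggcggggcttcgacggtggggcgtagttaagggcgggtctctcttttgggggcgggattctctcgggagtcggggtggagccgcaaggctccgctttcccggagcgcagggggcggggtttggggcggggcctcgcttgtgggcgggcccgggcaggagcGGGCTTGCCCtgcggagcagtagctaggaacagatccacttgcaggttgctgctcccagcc
SESN1: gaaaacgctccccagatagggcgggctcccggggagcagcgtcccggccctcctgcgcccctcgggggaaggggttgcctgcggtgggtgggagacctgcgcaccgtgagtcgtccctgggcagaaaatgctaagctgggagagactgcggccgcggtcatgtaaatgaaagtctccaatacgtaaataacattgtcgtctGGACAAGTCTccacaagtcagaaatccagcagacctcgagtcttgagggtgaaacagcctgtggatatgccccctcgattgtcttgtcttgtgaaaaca
AEN: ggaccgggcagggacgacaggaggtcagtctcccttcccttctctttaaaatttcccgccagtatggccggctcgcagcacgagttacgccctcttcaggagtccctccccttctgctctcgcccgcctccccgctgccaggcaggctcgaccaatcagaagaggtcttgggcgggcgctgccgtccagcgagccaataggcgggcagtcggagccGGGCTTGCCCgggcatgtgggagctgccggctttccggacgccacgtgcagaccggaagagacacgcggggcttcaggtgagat
The windows lie at chr11:47214724-47215023 (DDB2, plus strand), chr17:74872945-74873244 (FDXR, minus strand), chr6:109008939-109009238 (SESN1, minus strand, at a start inside the annotated gene) and chr15:88621090-88621389 (AEN, plus strand). FDXR and AEN hold the same 10 letters, GGGCTTGCCC, starting 11 and 34 bases before the transcript start. SESN1 holds GGACAAGTCT at 49 bases before it. DDB2 holds GAACAAGCCC at base 6 after the start and GGGCATGTTT at base 17, with 1 base between them. Half-sites were searched with the degenerate p53 half-site motif, which reads the same on either strand, and a pair was counted where at most 13 bases lay between. Of 34 RefSeq windows for 23 members, 6 (17.6%) held a half-site and 1 (2.94%), that of DDB2, a pair. Of all 35116 windows, 2329 (6.63%) held a half-site and 10 (0.0285%) a pair. GGGCGG, a GC box, stood on either strand in 28 of the member windows (82.4%) and in 15786 of all windows (45.0%). A match is a description of letters, not a bound site.

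At 6 h both drugs raised more of these genes than they lowered. With pracinostat, 14 of 25 genes passed the test (quasi-likelihood F test of edgeR, p adjusted over all genes by Benjamini-Hochberg and under 0.05), 11 higher and 3 lower, where 40.1% of all tested genes passed, 21.2% higher and 18.9% lower. With vorinostat 16 of 25 passed, 13 higher and 3 lower, against 43.9% of all tested genes, 23.1% higher and 20.9% lower. The median log2 fold change of the 25 genes was 0.36 with pracinostat and 0.54 with vorinostat, beside 0.03 and 0.02 over all tested genes. At 14 days fewer passed. With pracinostat 7 of 25 did, 4 higher and 3 lower, against 22.6% of all tested genes (12.3% higher, 10.2% lower), and with vorinostat 10 of 25, 7 higher and 3 lower, against 37.6% (20.4% higher, 17.2% lower). The medians at 14 days were 0.09 and 0.33, beside 0.07 and 0.12 over all tested genes. The pracinostat count at 14 days was 2 without PFEIFFER, 3 without SUDHL4 and 4 without TOLEDO, and the vorinostat count 6 without SUDHL4. Without the line as a block, 1 and 3 members were called at 6 h and 0 at 14 days. In bulk RNA from a culture, fewer cells of a type and less RNA per cell cannot be told apart.

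**Figure D2:**
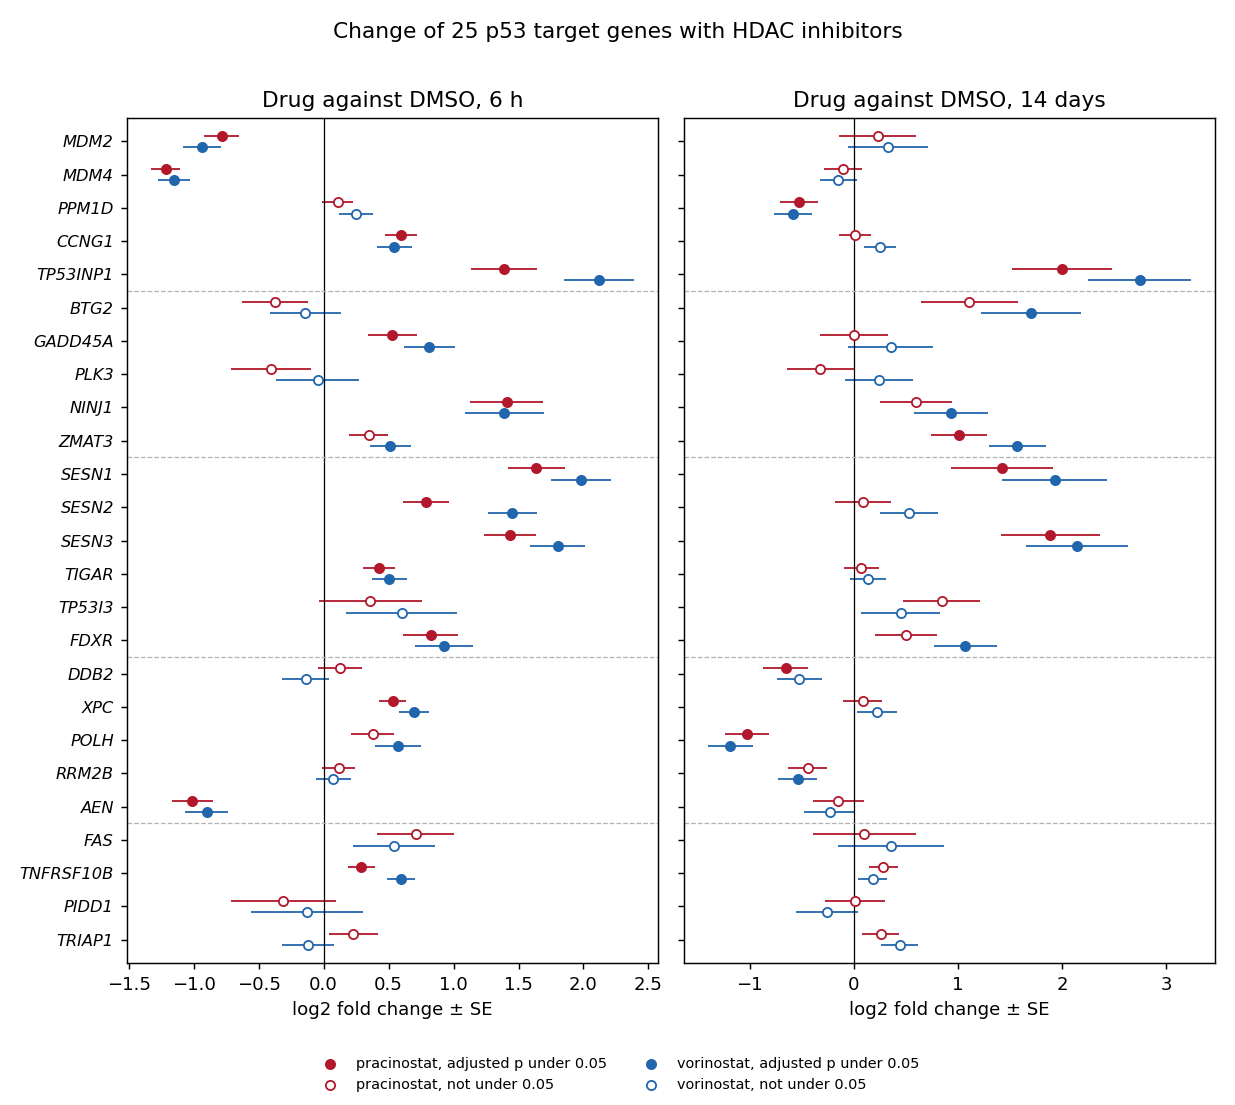
Log2 fold change with its standard error for the 25 tested genes, pracinostat and vorinostat against DMSO at 6 h (left) and 14 days (right), grouped by role from feedback on p53 at the top to cell death at the bottom; filled points passed an adjusted p of 0.05. TP53INP1, SESN1 and SESN3 are filled on the high side in all 4 comparisons, while MDM2, MDM4 and AEN are filled on the low side at 6 h and open at 14 days.

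Among the genes that feed back on p53, the main inhibitors fell at 6 h while 2 other members rose. MDM2 encodes the ubiquitin ligase that marks p53 for destruction, and MDM4 encodes its relative that binds and silences p53. MDM2 (chromosome 12, 68808176 to 68850686, plus strand, GRCh38) had 35.6 to 179 CPM (median 56.6) with pracinostat and 64.3 to 209.7 CPM (median 102) in DMSO. With vorinostat and DMSO it had 70.0 against 185 CPM in OCILY1, 36.2 against 65.4 CPM in PFEIFFER, 56.6 against 126 CPM in SUDHL4, 171 against 209.7 CPM in TOLEDO and 40.2 against 77.5 CPM in WSUDLCL2. All lines were lower with either drug, while the groups overlapped, and TOLEDO held the most MDM2 under every treatment. The log2 fold changes were -0.78 (SE 0.14, adjusted p = 0.000336) with pracinostat and -0.93 (SE 0.15, adjusted p = 0.000107) with vorinostat. MDM4 (chromosome 1, 204516379 to 204558120, plus strand) had 26.8 to 127 CPM (median 55.9) with pracinostat and 53.8 to 266 CPM (median 133) in DMSO. With vorinostat and DMSO it had 51.5 against 109 CPM in OCILY1, 23.7 against 53.8 CPM in PFEIFFER, 61.7 against 164 CPM in SUDHL4, 144 against 266 CPM in TOLEDO and 49.1 against 116 CPM in WSUDLCL2. Every line was lower here too, and MDM4 had the largest fall of any member at 6 h, with log2 fold changes of -1.22 (SE 0.11, adjusted p = 2.31e-06) and -1.15 (SE 0.12, adjusted p = 3.57e-06).

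By 14 days the fall of both inhibitors was no longer called, and MDM2 had split by line. With pracinostat and DMSOP, MDM2 had 279 against 160.0 CPM in OCILY1, 54.0 against 64.3 CPM in PFEIFFER, 66.2 against 92.4 CPM in SUDHL4, 575 against 206 CPM in TOLEDO and 65.7 against 77.1 CPM in WSUDLCL2. Vorinostat against DMSOV gave 235 against 178 CPM in OCILY1, 57.3 against 70.7 CPM in PFEIFFER, 61.1 against 95.5 CPM in SUDHL4, 1123 against 230.3 CPM in TOLEDO and 43.6 against 77.1 CPM in WSUDLCL2. TOLEDO and OCILY1 were higher with both drugs and the other 3 lines were lower with both. The log2 fold changes over lines were 0.23 (SE 0.37, adjusted p = 0.694) and 0.33 (SE 0.38, adjusted p = 0.518), neither called. MDM4 at 14 days had 96.2 against 155 CPM in OCILY1, 44.1 against 53.4 CPM in PFEIFFER, 136 against 142 CPM in SUDHL4, 386 against 281 CPM in TOLEDO and 143 against 153 CPM in WSUDLCL2 with pracinostat and DMSOP. The vorinostat and DMSOV libraries held 102 against 139 CPM in OCILY1, 52.8 against 56.9 CPM in PFEIFFER, 129.8 against 147 CPM in SUDHL4, 336 against 295 CPM in TOLEDO and 72.7 against 105 CPM in WSUDLCL2. TOLEDO was higher and the other 4 lines were lower with both drugs, and the fold changes of -0.10 (SE 0.18) and -0.15 (SE 0.18) were not called.

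TP53INP1, which encodes a nuclear protein that p53 induces and that promotes its activity and autophagy, rose in all 4 comparisons. It had 9.79 to 242 CPM (median 65.7) with pracinostat at 6 h and 2.74 to 84.8 CPM (median 28.3) in DMSO, and 403 against 84.8 CPM in OCILY1, 18.5 against 2.74 CPM in PFEIFFER, 182 against 83.0 CPM in SUDHL4, 50.7 against 7.36 CPM in TOLEDO and 107 against 13.4 CPM in WSUDLCL2 with vorinostat and DMSO. At 14 days it had 158 against 111 CPM in OCILY1, 36.0 against 1.10 CPM in PFEIFFER, 231 against 67.5 CPM in SUDHL4, 50.7 against 11.1 CPM in TOLEDO and 153 against 43.4 CPM in WSUDLCL2 with pracinostat and DMSOP. For vorinostat and DMSOV the values were 248 against 106 CPM in OCILY1, 47.8 against 2.93 CPM in PFEIFFER, 362 against 62.5 CPM in SUDHL4, 100.02 against 8.82 CPM in TOLEDO and 77.4 against 14.2 CPM in WSUDLCL2. Every line was higher under each drug and time, while the groups overlapped, and the lines ranged from 1.10 to 111 CPM in DMSO. The log2 fold changes were 1.39 (SE 0.25) and 2.12 (SE 0.27) at 6 h and 2.00 (SE 0.48) and 2.75 (SE 0.49) at 14 days, with adjusted p-values from edgeR of 0.000585, 2.42e-05, 0.00926 and 0.000687. CCNG1 rose by 0.59 and 0.54 at 6 h, in every line, and stood at 0.01 and 0.25 at 14 days without a call.

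PPM1D, which encodes the phosphatase WIP1 that switches off p53 and the damage kinases, fell at 14 days with both drugs. At 6 h it stood at 0.11 (SE 0.12) with pracinostat and 0.25 (SE 0.13) with vorinostat, not called. By 14 days the levels were 16.9 against 21.4 CPM in OCILY1, 21.9 against 27.4 CPM in PFEIFFER, 9.04 against 19.5 CPM in SUDHL4, 47.7 against 56.7 CPM in TOLEDO and 12.5 against 23.3 CPM in WSUDLCL2 with pracinostat and DMSOP. With vorinostat and DMSOV it had 15.4 against 19.9 CPM in OCILY1, 23.5 against 31.9 CPM in PFEIFFER, 7.86 against 26.5 CPM in SUDHL4, 45.9 against 51.1 CPM in TOLEDO and 16.6 against 24.5 CPM in WSUDLCL2. All 5 lines were lower with both drugs, most of all SUDHL4, and the log2 fold changes were -0.53 (SE 0.18, adjusted p = 0.0448) and -0.58 (SE 0.18, adjusted p = 0.0198). Without SUDHL4 the adjusted p-values from edgeR were 0.0719 with pracinostat and 0.0734 with vorinostat, and leaving out any other single line also ended the pracinostat call.

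Among the metabolic targets, SESN1, SESN2 and SESN3 rose at 6 h with both drugs, and SESN1 and SESN3 rose at 14 days as well. SESN1 (chromosome 6, 108986437 to 109094819, minus strand) had 8.03 to 46.2 CPM (median 15.1) with pracinostat at 6 h and 1.54 to 23.1 CPM (median 3.67) in DMSO, and 52.5 against 23.1 CPM in OCILY1, 10.2 against 3.43 CPM in PFEIFFER, 27.3 against 3.80 CPM in SUDHL4, 33.1 against 7.97 CPM in TOLEDO and 13.5 against 1.54 CPM in WSUDLCL2 with vorinostat and DMSO. Every line was higher, with log2 fold changes of 1.64 (SE 0.22, adjusted p = 3.66e-05) and 1.98 (SE 0.23, adjusted p = 7.04e-06). At 14 days SESN1 had 33.2 against 32.6 CPM in OCILY1, 10.3 against 3.56 CPM in PFEIFFER, 23.2 against 4.71 CPM in SUDHL4, 23.1 against 13.4 CPM in TOLEDO and 14.9 against 1.74 CPM in WSUDLCL2 with pracinostat and DMSOP. Vorinostat against DMSOV gave 29.3 against 32.3 CPM in OCILY1, 10.7 against 3.62 CPM in PFEIFFER, 43.0 against 3.19 CPM in SUDHL4, 30.5 against 14.0 CPM in TOLEDO and 22.1 against 1.60 CPM in WSUDLCL2. OCILY1, which had the highest level in DMSO, was level with its DMSO libraries while the other 4 lines were higher. The log2 fold changes were 1.42 (SE 0.49, adjusted p = 0.0467) and 1.93 (SE 0.50, adjusted p = 0.00755). The pracinostat call at 14 days is marginal, since it was lost with library totals as the scaling (adjusted p = 0.0543 from edgeR), without a filter on low counts (0.0541) and without any of 4 lines (0.0741 to 0.147). The vorinostat call was lost without SUDHL4 (0.0545).

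SESN3 (chromosome 11, 95165513 to 95232541, minus strand) had 8.54 to 256 CPM (median 74.7) with pracinostat at 6 h and 0.935 to 134 CPM (median 27.1) in DMSO, and 11.5 against 0.935 CPM in OCILY1, 23.6 against 5.76 CPM in PFEIFFER, 333 against 134 CPM in SUDHL4, 167 against 47.1 CPM in TOLEDO and 166 against 39.1 CPM in WSUDLCL2 with vorinostat and DMSO. At 14 days it had 24.8 against 0.871 CPM in OCILY1, 25.7 against 4.54 CPM in PFEIFFER, 264 against 115 CPM in SUDHL4, 114 against 52.7 CPM in TOLEDO and 149 against 58.8 CPM in WSUDLCL2 with pracinostat and DMSOP. The vorinostat and DMSOV libraries held 21.6 against 0 CPM in OCILY1, 34.1 against 4.74 CPM in PFEIFFER, 308 against 93.0 CPM in SUDHL4, 96.2 against 42.3 CPM in TOLEDO and 86.6 against 40.1 CPM in WSUDLCL2. Every line was higher under each drug and time, and OCILY1, where the 3 DMSO libraries had 0 to 0.935 CPM, reached 8.54 to 24.8 CPM with the drugs. The log2 fold changes were 1.43 (SE 0.20, adjusted p = 5.6e-05) and 1.80 (SE 0.21, adjusted p = 9.62e-06) at 6 h, and 1.89 (SE 0.48, adjusted p = 0.0122) and 2.15 (SE 0.49, adjusted p = 0.00333) at 14 days. The pracinostat call at 14 days was lost without PFEIFFER (adjusted p = 0.0626 from edgeR) and with limma on the deposited log2 values (adjusted p = 0.097). SESN2 rose at 6 h by 0.79 (SE 0.18) under pracinostat and 1.45 (SE 0.19) under vorinostat, in all lines, and stood at 0.09 (SE 0.27) and 0.53 (SE 0.27) at 14 days without a call.

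**Figure D3:**
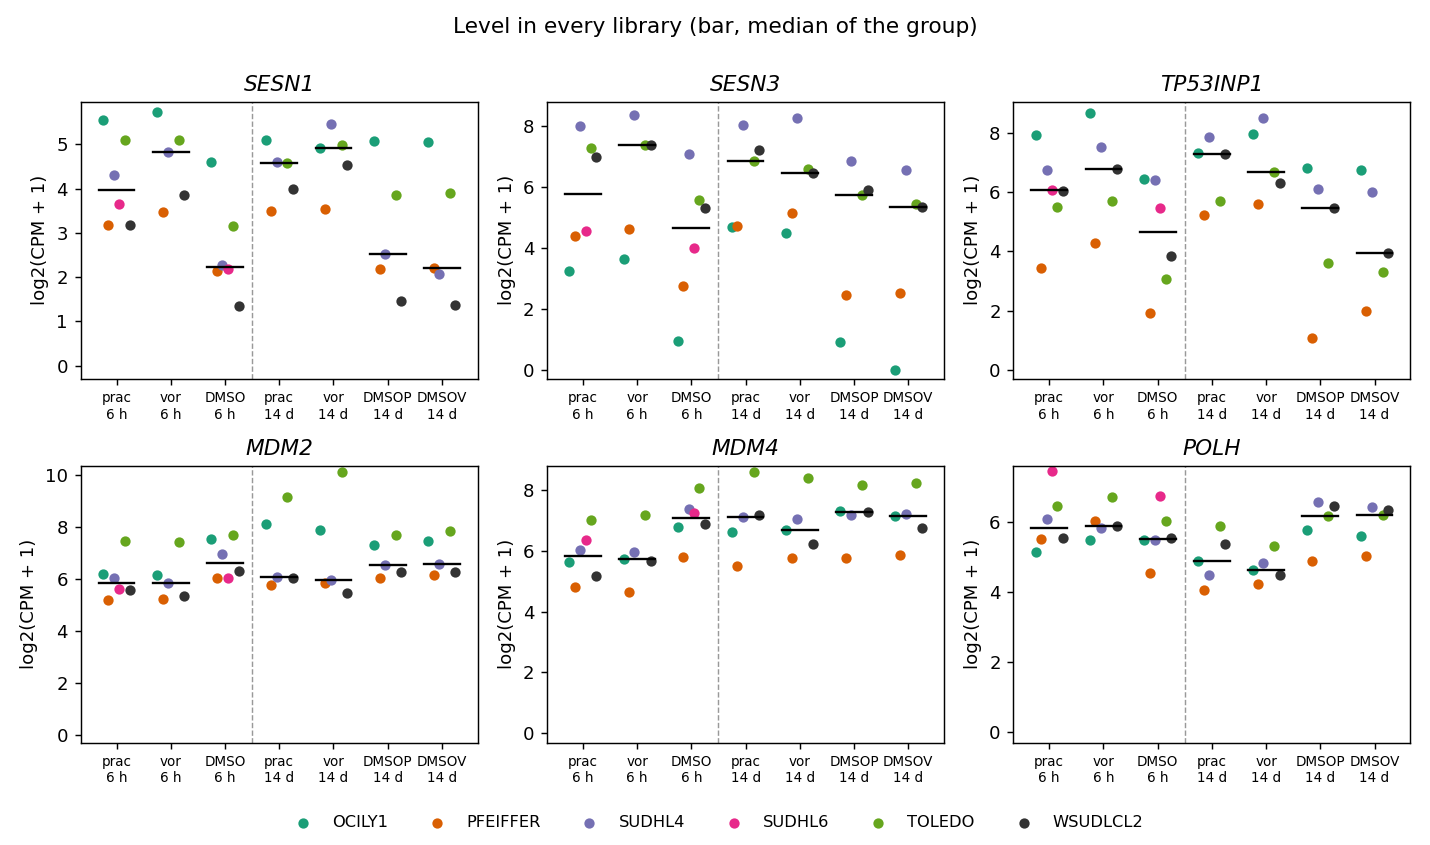
Level of 6 members in every library as log2(CPM + 1), with pracinostat (prac), vorinostat (vor) and DMSO groups at 6 h left of the dashed line and at 14 days right of it; points are libraries coloured by line and bars are group medians. SESN1, SESN3 and TP53INP1 stand higher with the drugs at both times, MDM2 and MDM4 lower at 6 h, POLH lower at 14 days, and the TOLEDO point of MDM2 reaches 1123 CPM with vorinostat at 14 days.

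Of the other metabolic targets, FDXR encodes the mitochondrial ferredoxin reductase, TIGAR an enzyme that turns glucose use away from glycolysis and TP53I3 an oxidoreductase. FDXR rose in all lines at 6 h, by 0.82 (SE 0.21) under pracinostat and 0.92 (SE 0.22) under vorinostat. At 14 days it rose with vorinostat, by 1.07 (SE 0.30, adjusted p = 0.0116) with all 5 lines higher, and stood at 0.50 (SE 0.30, adjusted p = 0.228) with pracinostat. The vorinostat call was lost without TOLEDO (adjusted p = 0.103 from edgeR). TIGAR rose by 0.43 and 0.50 at 6 h, in all lines (the pracinostat call was lost without WSUDLCL2, adjusted p = 0.0613 from edgeR), with 0.07 and 0.13 at 14 days and no call. TP53I3 was not called in any of the 4 drug comparisons, with 0.849 to 3.85 CPM (median 1.96) with pracinostat at 6 h and 0 to 6.08 CPM (median 0.697) in DMSO.

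The genes grouped under arrest and growth control answered unequally. NINJ1 encodes a membrane protein that ruptures the cell surface in lytic death, and ZMAT3 an RNA-binding protein that acts on splicing. NINJ1 had 1.06 to 27.3 CPM (median 9.37) with pracinostat at 6 h and 0.279 to 19.3 CPM (median 2.82) in DMSO, and 23.6 against 6.01 CPM in OCILY1, 8.33 against 2.88 CPM in PFEIFFER, 3.45 against 1.27 CPM in SUDHL4, 25.2 against 19.3 CPM in TOLEDO and 3.17 against 0.279 CPM in WSUDLCL2 with vorinostat and DMSO. All lines were higher, with log2 fold changes of 1.41 (SE 0.28, adjusted p = 0.00106) and 1.39 (SE 0.30, adjusted p = 0.00156). Counts were low in 2 lines. WSUDLCL2 had 2 counts in DMSO, below the floor of 3 counts, against 5 with pracinostat and 20 with vorinostat. SUDHL4 had 4 counts in DMSO, against 24 and 23. By 14 days the levels were 9.99 against 8.46 CPM in OCILY1, 9.65 against 4.66 CPM in PFEIFFER, 3.79 against 2.02 CPM in SUDHL4, 17.6 against 17.6 CPM in TOLEDO and 5.13 against 2.43 CPM in WSUDLCL2 with pracinostat and DMSOP. For vorinostat and DMSOV the values were 7.13 against 8.16 CPM in OCILY1, 9.96 against 5.44 CPM in PFEIFFER, 7.17 against 2.74 CPM in SUDHL4, 15.5 against 16.5 CPM in TOLEDO and 8.90 against 1.02 CPM in WSUDLCL2. The vorinostat fold change of 0.93 (SE 0.36, adjusted p = 0.049) was called with 3 lines higher and 2 lower. That call was lost without PFEIFFER, SUDHL4 or WSUDLCL2 (adjusted p = 0.116 to 0.244 from edgeR). It was also lost with library totals (0.0805), without a filter on low counts (0.0572) and with a CPM filter (0.0532). The fold change with pracinostat was 0.60 (SE 0.34), not called. ZMAT3 rose at 14 days in all 5 lines, by 1.01 (SE 0.27, adjusted p = 0.0151) with pracinostat and 1.57 (SE 0.27, adjusted p = 0.000534) with vorinostat. With vorinostat its libraries did not overlap those of DMSOV, at 119.9 to 301 CPM (median 145) against 24.1 to 106 CPM (median 74.3). At 6 h ZMAT3 rose with vorinostat, by 0.51 (SE 0.16, adjusted p = 0.0148), and stood at 0.35 (SE 0.15, adjusted p = 0.0742) with pracinostat. The vorinostat call at 6 h was lost without SUDHL4 (adjusted p = 0.0835 from edgeR) or TOLEDO (0.0741), and the pracinostat call at 14 days without PFEIFFER (0.0776) or SUDHL4 (0.0845).

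BTG2 went opposite ways in TOLEDO and the other lines at 6 h, and rose with vorinostat at 14 days. It had 128 to 594 CPM (median 221) with pracinostat at 6 h and 139 to 709 CPM (median 311) in DMSO, and 321 against 408 CPM in OCILY1, 123 against 139 CPM in PFEIFFER, 189.7 against 338 CPM in SUDHL4, 507 against 152 CPM in TOLEDO and 197 against 284 CPM in WSUDLCL2 with vorinostat and DMSO. TOLEDO was higher and every other line was lower, and the log2 fold changes of -0.37 (SE 0.25, adjusted p = 0.258) and -0.14 (SE 0.27, adjusted p = 0.707) were not called. Without TOLEDO, BTG2 fell, with log2 fold changes of -0.61 with pracinostat (adjusted p = 0.00452 from edgeR) and -0.47 with vorinostat (0.0256). At 14 days BTG2 had 389 against 484 CPM in OCILY1, 420.0 against 77.2 CPM in PFEIFFER, 400.2 against 254 CPM in SUDHL4, 622 against 140.3 CPM in TOLEDO and 546 against 313 CPM in WSUDLCL2 with pracinostat and DMSOP. With vorinostat and DMSOV it had 448 against 449 CPM in OCILY1, 504 against 69.8 CPM in PFEIFFER, 369 against 243 CPM in SUDHL4, 1542 against 149 CPM in TOLEDO and 399 against 209.9 CPM in WSUDLCL2. All lines but OCILY1 were higher with both drugs. The rise with vorinostat was 1.70 (SE 0.48, adjusted p = 0.0123), lost without PFEIFFER (adjusted p = 0.0612) or TOLEDO (0.0785), and pracinostat gave 1.11 (SE 0.47, adjusted p = 0.0973).

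GADD45A had 6.54 to 79.2 CPM (median 13.5) with pracinostat at 6 h and 2.51 to 68.0 CPM (median 9.86) in DMSO, and 78.6 against 68.0 CPM in OCILY1, 27.4 against 13.4 CPM in PFEIFFER, 51.5 against 20.0 CPM in SUDHL4, 11.3 against 6.28 CPM in TOLEDO and 6.01 against 2.51 CPM in WSUDLCL2 with vorinostat and DMSO. All lines were higher, and the rises were 0.53 (SE 0.19, adjusted p = 0.0342) and 0.81 (SE 0.20, adjusted p = 0.00334). The pracinostat call was lost when any of 4 lines was left out (adjusted p = 0.0566 to 0.0961 from edgeR). At 14 days GADD45A had 31.9 against 90.8 CPM in OCILY1, 32.2 against 15.8 CPM in PFEIFFER, 24.5 against 40.6 CPM in SUDHL4, 9.98 against 10.2 CPM in TOLEDO and 10.3 against 4.17 CPM in WSUDLCL2 with pracinostat and DMSOP. Vorinostat against DMSOV gave 44.1 against 107 CPM in OCILY1, 37.1 against 19.8 CPM in PFEIFFER, 34.2 against 52.7 CPM in SUDHL4, 24.2 against 9.14 CPM in TOLEDO and 12.0 against 4.21 CPM in WSUDLCL2. OCILY1 and SUDHL4 were lower with both drugs, PFEIFFER and WSUDLCL2 higher with both, and the fold changes over lines, 0.00 and 0.35, were not called. PLK3, which encodes a stress-responsive polo-like kinase, was not called in any of the 4 drug comparisons, and its log2 difference ranged by line from -1.95 in WSUDLCL2 to 0.69 in OCILY1 with pracinostat at 6 h.

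Of 5 genes grouped under DNA repair and nucleotide supply, XPC rose and AEN fell at 6 h, and POLH fell at 14 days. XPC, which recognises damage in nucleotide excision repair, rose by 0.53 (SE 0.11, adjusted p = 0.00104) with pracinostat and 0.70 (SE 0.11, adjusted p = 0.000152) with vorinostat, in every line. With vorinostat its libraries did not overlap those of DMSO, at 40.9 against 25.2 CPM in OCILY1, 45.3 against 21.3 CPM in PFEIFFER, 54.4 against 34.2 CPM in SUDHL4, 37.7 against 24.7 CPM in TOLEDO and 49.1 against 30.4 CPM in WSUDLCL2. At 14 days XPC stood at 0.08 and 0.22, not called. XPC shares 23.8% of its exon bases with AC093495.1, an antisense gene on the opposite strand, and since no source used here gives the strand setting of the counting, reads of overlapping genes cannot be told apart. 8 members share exon bases with another gene of the table in this way, FAS with ACTA2 over 8.93% of its exon bases and the other 6 over at most 3.46%.

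AEN encodes a nuclease that p53 induces in apoptosis. It had 21.3 to 43.2 CPM (median 31.6) with pracinostat at 6 h and 42.9 to 83.3 CPM (median 66.6) in DMSO, and 35.8 against 57.2 CPM in OCILY1, 53.2 against 76.0 CPM in PFEIFFER, 33.6 against 83.3 CPM in SUDHL4, 28.7 against 77.3 CPM in TOLEDO and 30.1 against 42.9 CPM in WSUDLCL2 with vorinostat and DMSO. All lines were lower, with log2 fold changes of -1.01 (SE 0.16, adjusted p = 0.000133) and -0.90 (SE 0.17, adjusted p = 0.000462). At 14 days AEN had 34.6 against 23.3 CPM in OCILY1, 51.1 against 57.3 CPM in PFEIFFER, 33.5 against 40.4 CPM in SUDHL4, 37.0 against 56.0 CPM in TOLEDO and 15.6 against 21.7 CPM in WSUDLCL2 with pracinostat and DMSOP, and 39.0 against 24.3 CPM in OCILY1, 45.9 against 63.5 CPM in PFEIFFER, 19.1 against 40.4 CPM in SUDHL4, 30.3 against 47.3 CPM in TOLEDO and 36.2 against 38.1 CPM in WSUDLCL2 with vorinostat and DMSOV. OCILY1 was higher and the other 4 lines were lower with both drugs, and the fold changes, -0.15 (SE 0.24) and -0.23 (SE 0.25), were not called.

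POLH encodes the polymerase that copies past UV lesions. It had 34.1 to 174 CPM (median 56.6) with pracinostat at 6 h and 22.5 to 106 CPM (median 44.8) in DMSO, and 44.0 against 43.5 CPM in OCILY1, 64.0 against 22.5 CPM in PFEIFFER, 55.7 against 43.7 CPM in SUDHL4, 104 against 64.5 CPM in TOLEDO and 58.9 against 46.0 CPM in WSUDLCL2 with vorinostat and DMSO. The rise with vorinostat was 0.57 (SE 0.18, adjusted p = 0.0153), lost without PFEIFFER (adjusted p = 0.0605 from edgeR), and pracinostat gave 0.38 (SE 0.17, adjusted p = 0.0821). At 14 days POLH had 28.9 against 54.3 CPM in OCILY1, 15.5 against 28.8 CPM in PFEIFFER, 21.3 against 94.8 CPM in SUDHL4, 58.2 against 71.6 CPM in TOLEDO and 40.6 against 87.8 CPM in WSUDLCL2 with pracinostat and DMSOP. The vorinostat and DMSOV libraries held 23.9 against 47.9 CPM in OCILY1, 17.8 against 31.5 CPM in PFEIFFER, 27.3 against 85.5 CPM in SUDHL4, 39.0 against 73.0 CPM in TOLEDO and 21.5 against 79.9 CPM in WSUDLCL2. Every line was lower with both drugs, with log2 fold changes of -1.02 (SE 0.21, adjusted p = 0.00388) and -1.18 (SE 0.21, adjusted p = 0.000631).

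DDB2, which detects UV lesions, had 27.4 to 43.0 CPM (median 30.0) with pracinostat at 6 h and 21.8 to 45.8 CPM (median 25.8) in DMSO, with fold changes of 0.13 with pracinostat and -0.14 with vorinostat that were not called. With vorinostat and DMSO at 6 h it had 31.7 against 45.8 CPM in OCILY1, 36.2 against 32.5 CPM in PFEIFFER, 15.6 against 24.4 CPM in SUDHL4, 28.7 against 23.9 CPM in TOLEDO and 20.3 against 21.8 CPM in WSUDLCL2. At 14 days it had 20.0 against 48.4 CPM in OCILY1, 28.2 against 34.6 CPM in PFEIFFER, 17.1 against 48.4 CPM in SUDHL4, 23.1 against 29.5 CPM in TOLEDO and 47.2 against 49.9 CPM in WSUDLCL2 with pracinostat and DMSOP. For vorinostat and DMSOV the values were 21.2 against 45.2 CPM in OCILY1, 34.0 against 34.4 CPM in PFEIFFER, 23.9 against 58.8 CPM in SUDHL4, 23.1 against 32.6 CPM in TOLEDO and 49.7 against 47.2 CPM in WSUDLCL2. All 5 lines were lower with pracinostat, and OCILY1 and SUDHL4 had the largest differences with both drugs. The fold change was -0.65 (SE 0.21, adjusted p = 0.0383) with pracinostat, lost without OCILY1, PFEIFFER, SUDHL4 or TOLEDO (adjusted p = 0.066 to 0.163 from edgeR), and -0.52 (SE 0.22, adjusted p = 0.0671) with vorinostat.

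RRM2B had 67.9 to 239.6 CPM (median 180.0) with pracinostat at 6 h, 71.2 to 233 CPM (median 163) with vorinostat and 66.4 to 262 CPM (median 152) in DMSO, and was not called. By 14 days the levels were 136 against 309 CPM in OCILY1, 108 against 119 CPM in PFEIFFER, 100.5 against 152 CPM in SUDHL4, 49.9 against 57.5 CPM in TOLEDO and 157 against 178 CPM in WSUDLCL2 with pracinostat and DMSOP. With vorinostat and DMSOV it had 125 against 298 CPM in OCILY1, 135 against 126 CPM in PFEIFFER, 108 against 199.8 CPM in SUDHL4, 54.3 against 62.7 CPM in TOLEDO and 114 against 194 CPM in WSUDLCL2. OCILY1 showed the largest difference under both drugs. RRM2B fell with vorinostat, with a log2 fold change of -0.54 (SE 0.19, adjusted p = 0.0313), a call lost without OCILY1, SUDHL4 or WSUDLCL2 (adjusted p = 0.0775 to 0.108 from edgeR), and pracinostat gave -0.44 (SE 0.19, adjusted p = 0.0937).

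AEN and NINJ1, which also act in cell death, are grouped above under other roles. At 6 h AEN was called lower and NINJ1 higher with both drugs. Of the 4 genes grouped under cell death, TNFRSF10B was the one called at 6 h. It encodes a receptor for the death ligand TRAIL and rose at 6 h by 0.29 (SE 0.10, adjusted p = 0.0316) with pracinostat and 0.60 (SE 0.11, adjusted p = 0.000343) with vorinostat, in every line, and gave 0.28 and 0.18 at 14 days without a call. The pracinostat call was lost without OCILY1, SUDHL4, SUDHL6 or TOLEDO (adjusted p = 0.0607 to 0.115 from edgeR). FAS, the receptor of the Fas ligand, was not called in any of the 4 comparisons, but it differed among lines at 14 days, where vorinostat gave -2.36 in SUDHL4 and 1.65 in WSUDLCL2. The SUDHL4 value rests on 2 counts with vorinostat (0.683 CPM), below the floor of 3 counts, against 21 counts with DMSOV. That difference among lines was no longer called without TOLEDO (adjusted p = 0.0875 from edgeR). PIDD1, a scaffold for caspase activation, and TRIAP1, a small inhibitor of apoptosis, were not called in any of the 4 comparisons, with log2 fold changes between -0.31 and 0.44.

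Pracinostat and vorinostat were compared on the same lines. At 6 h, pracinostat against vorinostat called 0 of 25 members (edgeR), where 0.0152% of all tested genes, 2 genes, were called (0.00759% higher, 0.00759% lower), and 1214 genes had an unadjusted p under 0.05. The smallest unadjusted p-values among the members were those of SESN2, at a log2 difference of -0.66 (SE 0.18) with a 95% interval of -1.05 to -0.27, TP53INP1, at -0.73 (SE 0.25) with an interval of -1.27 to -0.20, and TNFRSF10B, at -0.31 (SE 0.11) with an interval of -0.53 to -0.08. All 3 were lower with pracinostat than with vorinostat in 5 of 5 lines, with adjusted p-values from edgeR of 0.345, 0.434 and 0.434. At 14 days the difference between the drug effects, each taken against its own DMSO set, called 0 of 25 members and 0% of all tested genes with edgeR, with 552 genes at an unadjusted p under 0.05. The intervals there were wide, for example -2.13 to 0.63 for TP53INP1 and -1.21 to 1.01 for MDM2, and 2-fold differences lie within both. The DMSOP and DMSOV sets themselves differed at 0 of 25 members and 0% of all genes in edgeR, with 83 genes at an unadjusted p under 0.05. Without doses in the labels, matched doses cannot be assumed.

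The effect of each drug at 14 days was set against its effect at 6 h. For pracinostat 5 of 27 members tested in that fit changed (edgeR, adjusted p under 0.05), 1 upward and 4 downward, where 19.4% of all tested genes did (9.53% upward, 9.83% downward). The effect on MDM4 was higher at 14 days by 1.09 (SE 0.21, adjusted p = 0.0008), and the effects on PPM1D, CCNG1, DDB2 and POLH were lower, at -0.65 (SE 0.22), -0.60 (SE 0.20), -0.81 (SE 0.28) and -1.42 (SE 0.28). For vorinostat 8 of 27 changed, 4 in each direction, against 23.4% of all tested genes (11.2% upward, 12.2% downward). Effects were higher at 14 days for MDM2 by 1.23 (SE 0.43), MDM4 by 0.97 (SE 0.22), BTG2 by 1.80 (SE 0.59) and ZMAT3 by 1.01 (SE 0.33). Effects were lower for PPM1D at -0.86 (SE 0.23), SESN2 at -0.97 (SE 0.35), POLH at -1.79 (SE 0.29) and RRM2B at -0.65 (SE 0.24). MDM4, PPM1D and POLH were called for both drugs. Of these, POLH had the smallest adjusted p with vorinostat, 9.14e-05, and MDM4 with pracinostat, 0.0008. The calls of MDM4 and POLH held for both drugs under each alternative with the line block. The vorinostat call of MDM2 was lost in 9 of 13 alternatives, among them library totals, both other filters, limma and the fits without OCILY1, PFEIFFER, SUDHL4 or TOLEDO, and its value was 0.75 without TOLEDO. That of RRM2B was also lost in 9 of 13, including each fit without a line, and that of SESN2 in each of those but the fit without WSUDLCL2. BTG2 lost its call without PFEIFFER, SUDHL4 or WSUDLCL2, ZMAT3 without PFEIFFER, SUDHL4 or TOLEDO, and PPM1D with vorinostat without SUDHL4. The pracinostat calls of PPM1D, CCNG1 and DDB2 were each lost in 5 of the 6 fits without a line. With pracinostat the counts were 2 to 5 members when a line was left out, being 2 without OCILY1, PFEIFFER or SUDHL4 and 3 without SUDHL6. With vorinostat they were 3 to 6, being 3 without SUDHL4, 4 without PFEIFFER or TOLEDO and 5 without OCILY1. The split of higher against lower calls moved with the scaling, to 2 and 3 for pracinostat with DESeq2's size factors and 1 and 6 with library totals, and for vorinostat to 4 and 2 with size factors and 2 and 6 with library totals.

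Each line was also read against a fit made without it. When PFEIFFER was left out of the fit, 13 members were called with pracinostat at 6 h, and all 13 had the same direction in PFEIFFER's own libraries, where 89.3% of all genes so called did. With vorinostat at 6 h it was 15 of 15 members, against 87.0% of all genes. TOLEDO matched for 12 of the 13 called without it with pracinostat, and for 15 of 16 under vorinostat, the exception being BTG2 both times, against 84.9% and 89.6% of all genes. At 14 days PFEIFFER matched for 2 of 2 members under pracinostat and for 7 of 9 under vorinostat, SESN2 and RRM2B going the other way, against 92.1% and 89.0% of all genes. The lowest share was that of OCILY1 with vorinostat at 14 days, 6 of 9 members (66.7%, against 88.7% of all genes), with BTG2, SESN1 and NINJ1 the other way. These shares are over few genes and are a description without a test.

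**Figure D4:**
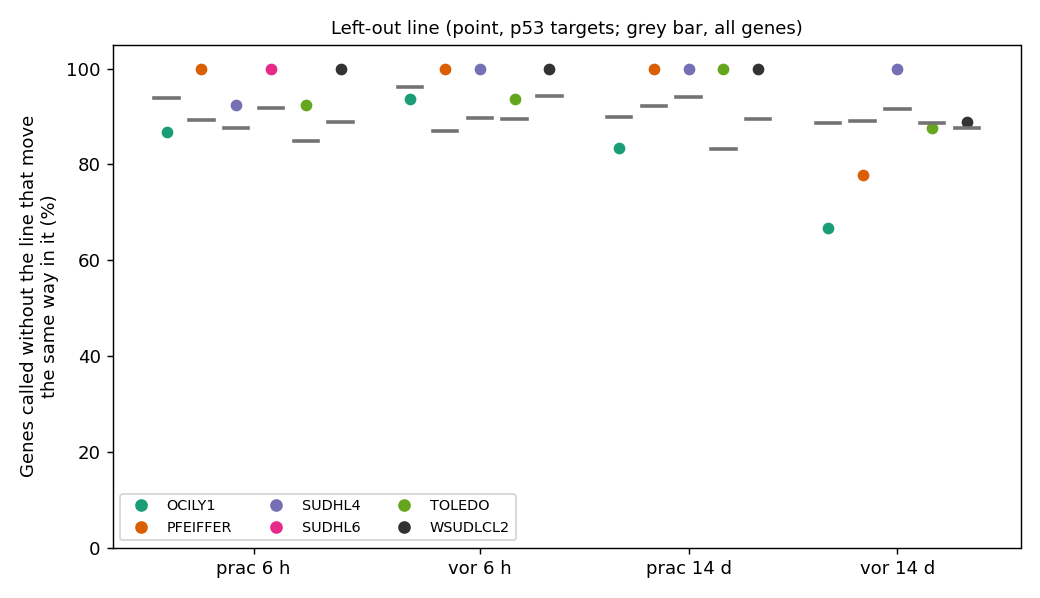
For each line and drug comparison, the percent of genes called in a fit without that line that moved the same way in it, for the p53 targets (points, coloured by line) and for all genes (grey bars), with pracinostat (prac) and vorinostat (vor) against DMSO at 6 h and 14 days (d). PFEIFFER and WSUDLCL2 lie at 100% for both drugs at 6 h, and OCILY1 has the lowest share, 66.7%, with vorinostat at 14 days.

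More members differed among lines in their response at 14 days, with 2 DMSO libraries per line, than at 6 h, with 1. For this test both drug libraries of a line were set together against its DMSO libraries, so that the drugs serve as the pair of libraries per line. SUDHL6, in the 6 h test only, had 1 drug library and so no such pair. At 6 h 1 of 25 members differed among lines, BTG2 (adjusted p = 0.0111, edgeR F test), where 2.52% of all tested genes did. The next smallest p-values were those of SESN3 and MDM2, with adjusted p-values of 0.0874 and 0.169. At 14 days 13 of 25 members differed, where 19.5% of all tested genes did. SESN1, BTG2 and MDM2 led, with adjusted p-values of 5.29e-05, 0.000145 and 0.000209 from edgeR. The mean log2 difference of SESN1 was -0.06 in OCILY1, 1.47 in PFEIFFER, 2.93 in SUDHL4, 0.94 in TOLEDO and 3.22 in WSUDLCL2. BTG2 differed by -0.16 in OCILY1, 2.64 in PFEIFFER, 0.63 in SUDHL4, 2.76 in TOLEDO and 0.86 in WSUDLCL2. For MDM2 the values were 0.60 in OCILY1, -0.28 in PFEIFFER, -0.56 in SUDHL4, 1.88 in TOLEDO and -0.52 in WSUDLCL2. TOLEDO was thus the line of the largest MDM2 difference, and TOLEDO and PFEIFFER had the largest BTG2 differences, close to each other. In OCILY1 the mean differences of SESN1 and BTG2 were slightly below 0. SESN1 there was 33.2 against 32.6 CPM with pracinostat and DMSOP. The other members called were PPM1D, TP53INP1, GADD45A, NINJ1, ZMAT3, SESN2, SESN3, DDB2, RRM2B and FAS. The PPM1D call was lost with both other filters and without OCILY1, PFEIFFER, SUDHL4 or TOLEDO. NINJ1 lost its call without OCILY1, PFEIFFER, TOLEDO or WSUDLCL2, and TP53INP1 and RRM2B without OCILY1 or PFEIFFER. Calls were also lost for SESN2 without PFEIFFER or SUDHL4, SESN3 without OCILY1 and FAS without TOLEDO. Leaving out a line moved the count at 14 days to between 8 (without OCILY1 or PFEIFFER) and 17 of the 26 members then tested (without WSUDLCL2), and the count at 6 h to between 0 (without TOLEDO) and 4 (without WSUDLCL2).

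**Figure D5:**
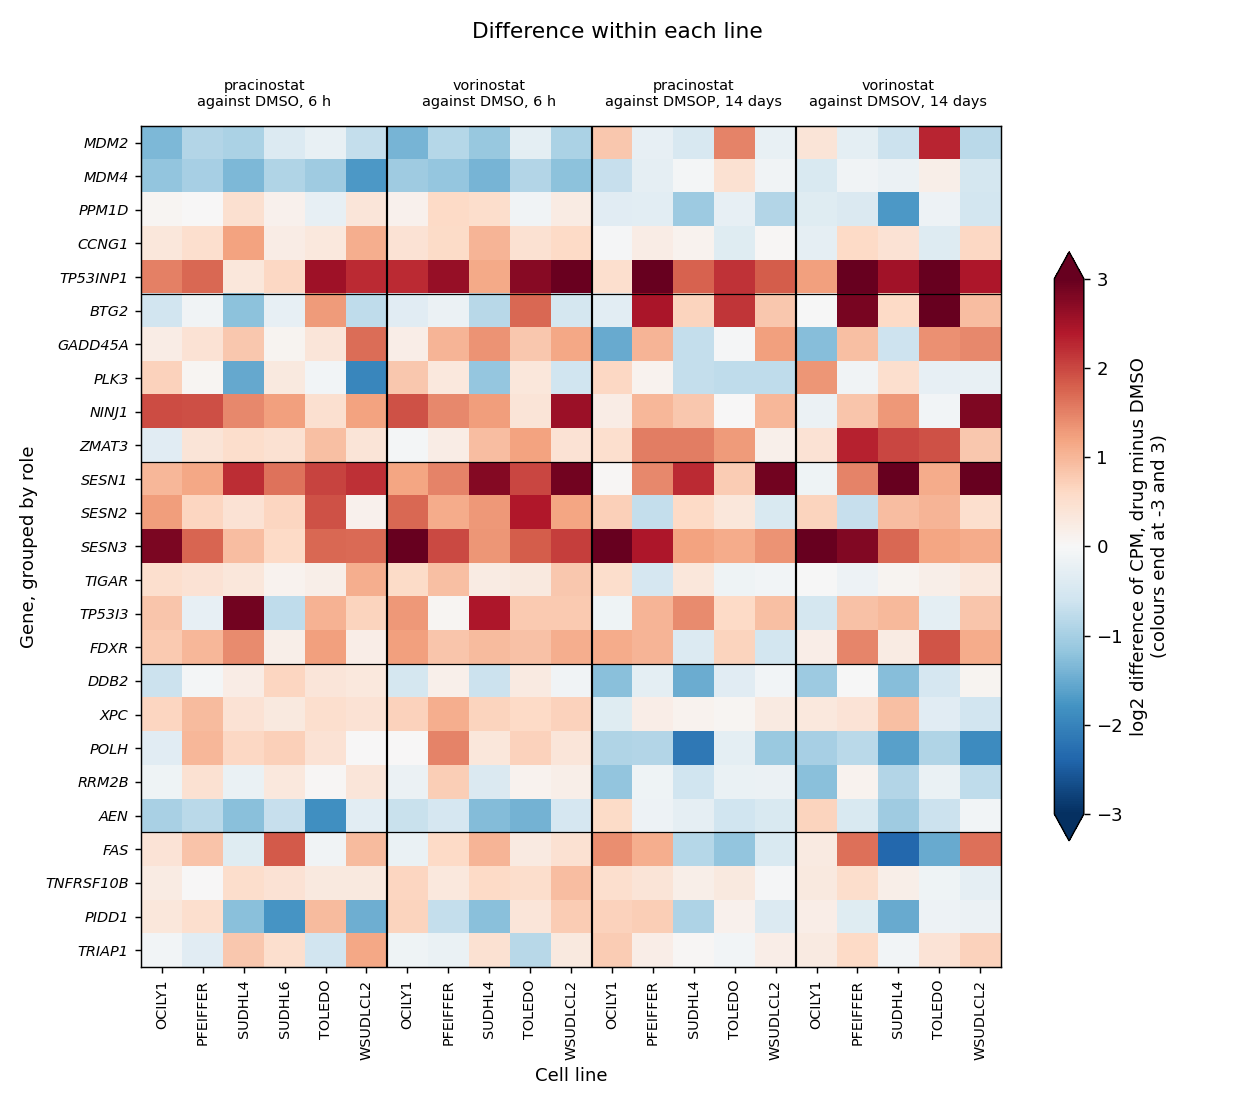
Log2 difference of CPM, drug minus DMSO of the same line, for the 25 tested genes (rows, grouped by role) in each line (columns) and comparison (blocks); red is higher and blue lower with the drug, and colours end at -3 and 3. The rows of TP53INP1, SESN1 and SESN3 are red in nearly all columns, the MDM4 and AEN rows are blue at 6 h, and the MDM2 row at 14 days is red in OCILY1 and TOLEDO.

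The rest of the pathway was read from a pair of further lists. Of 29 regulators upstream in the pathway, all tested, pracinostat raised 4 and lowered 7 at 6 h, while vorinostat raised 5 and lowered 8, so that 37.9% and 44.8% were called, against 40.1% and 43.9% of all tested genes. KAT5, an acetyltransferase of p53, had the largest fall, at -1.71 (SE 0.16) with pracinostat and -1.79 (SE 0.18) with vorinostat, followed by CREBBP, another acetyltransferase, at -0.81 (SE 0.14) and -0.86 (SE 0.15). HIPK2, a kinase of p53, rose by 1.33 (SE 0.47) and 1.56 (SE 0.50), WRAP53, a telomerase cofactor, by 0.82 (SE 0.12) and 0.94 (SE 0.13), and PPP1R13L, which encodes the p53 inhibitor iASPP, by 0.76 (SE 0.29) and 1.37 (SE 0.29). At 14 days pracinostat raised 2 and lowered 8, while vorinostat raised 2 and lowered 10, which makes 34.5% and 41.4% called, against 22.6% and 37.6% of all tested genes. CHEK1, a damage checkpoint kinase, fell, at -1.44 (SE 0.36) and -1.79 (SE 0.38). CHEK2, another such kinase, fell, at -0.78 (SE 0.20) under pracinostat and -0.94 (SE 0.21) under vorinostat. SIRT1, a deacetylase of p53, fell, at -0.69 (SE 0.15) under pracinostat and -1.30 (SE 0.16) under vorinostat. RPL11, a ribosomal protein that binds MDM2, rose by 0.57 (SE 0.15) and 1.02 (SE 0.15), as did TP73, a relative of p53, by 2.17 (SE 0.65) with pracinostat and RPL5, the partner of RPL11, by 0.50 (SE 0.12) with vorinostat. The median log2 fold changes of this list were -0.01 with pracinostat and -0.07 with vorinostat at 6 h, and -0.17 with each drug at 14 days. At 14 days the response differed among lines for 7 of the 29 (24.1%, edgeR F test), against 19.5% of all tested genes. CHEK1, CHEK2, HIPK2 and TP73 were among them.

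Of 50 other direct p53 targets 46 had a row and 45 were tested. At 6 h pracinostat raised 12 and lowered 7, while vorinostat raised 14 and lowered 4, so that 42.2% and 40.0% were called, against 40.1% and 43.9% of all tested genes. TP53I11 rose by 2.14 (SE 0.36) under pracinostat and 2.13 (SE 0.38) under vorinostat at 6 h, and by 2.88 (SE 0.86) and 2.75 (SE 0.89) at 14 days. With vorinostat at 14 days TP53I11 was lower in TOLEDO, at 6.32 against 10.3 CPM in DMSOV, and higher in the other lines. The DMSO libraries of OCILY1 at 14 days held 0 to 0.249 CPM of it. CDKN1A, the gene of the cyclin-dependent kinase inhibitor p21, rose by 2.06 (SE 0.28) and 2.22 (SE 0.30) at 6 h, and at 14 days by 2.08 (SE 0.53) under pracinostat and 3.13 (SE 0.55) under vorinostat. At 14 days CDKN1A had 126 against 9.57 CPM in OCILY1, 8.68 against 4.74 CPM in PFEIFFER, 24.9 against 7.07 CPM in SUDHL4, 246 against 19.9 CPM in TOLEDO and 108 against 4.65 CPM in WSUDLCL2 with vorinostat and DMSOV, and every line was higher. With pracinostat and DMSOP, PFEIFFER was about level at 7.89 against 7.61 CPM, while the other lines were higher. Falls at 6 h were led by VWCE, at -1.30 (SE 0.34) with pracinostat, TNFRSF10A, a second TRAIL receptor, at -0.69 (SE 0.20) and -0.67 (SE 0.22), and PANK1, a kinase of coenzyme A synthesis, at -0.50 (SE 0.14) and -0.57 (SE 0.15). At 14 days pracinostat raised 6 and lowered 3, while vorinostat raised 14 and lowered 6, that is 20.0% and 44.4%, against 22.6% and 37.6% of all tested genes. DRAM1, which promotes autophagy, rose by 2.40 (SE 0.43) under pracinostat and 2.07 (SE 0.45) under vorinostat, and PERP, a membrane protein of cell junctions, by 3.07 (SE 1.06) with vorinostat. E2F7, a repressor of cell cycle genes, fell, at -0.95 (SE 0.32) and -1.22 (SE 0.34), as did PANK1, at -0.77 (SE 0.25) and -0.79 (SE 0.26), and ASCC3, a helicase, at -0.57 (SE 0.13) and -0.996 (SE 0.13). The medians of this list were 0.10 with pracinostat and 0.10 with vorinostat at 6 h, and 0.13 and 0.30 at 14 days. Responses at 14 days differed among lines for 11 of the 45 (24.4%, edgeR F test), against 19.5% of all tested genes. CDKN1A, TP53I11 and PERP were among them.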

How the data were processed

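RNA was taken with Trizol and sequenced from TruSeq RNA libraries made from total RNA, per the labels' protocols. The authors deposited a table of raw counts per gene and a table of normalized log2 CPM values, made with STAR and edgeR on hg38 per the submitters' processing notes; their versions, the annotation and the strand setting are given in no source used here. The deposited log2 values differed by at most 4.99e-06 from TMM log2 CPM with a prior count of 0.25, computed from the counts. Libraries held 3.19 to 8.92 M counts.

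Counts were tested with edgeR 4.0.16 (R 4.3.3), using TMM scaling, filterByExpr with a minimum count of 10 and a minimum total of 15, and a robust quasi-likelihood fit with the line as a block, since libraries of one line share that cell line. P-values were adjusted by Benjamini-Hochberg over all genes, with a threshold of 0.05. A standard error is the log2 fold change divided by the root of F. CPM values use TMM over all 37 libraries, and log2 differences within a line a prior count of 2. The analysis was tested on simulated data. Values by line are given for the 3 largest called rises and falls of each drug comparison (where log2 CPM averaged 2 or more). The same holds for the 3 smallest p-values of each test of lines. Levels with pracinostat at 6 h are given as a range and median, and those of the DMSO test as line means. For the pathway lists up to 2 rises and 2 falls are named. GADD45A, RRM2B, BTG2 and others enter by these rules. The members and lists were chosen with earlier results of these data known. Alternatives were DESeq2 1.42.0 and its size factors, library totals, other filters, limma 3.58.1 on the deposited log2 values, the mean of both DMSO sets, no line block and leaving out each line. SUDHL6 with vorinostat at 6 h and a second sample titled as SUDHL4 vorinostat at 14 days were not analysed here, and some genes of the pathway and marker lists are not reported here. Floors cover counting error only.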

Additional observations from a re-analysis of the deposited data

Results flagged for a closer look

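In 4 of 100 sets of per-line log2 differences, a line stood apart from the others by Dixon's criterion, which chance alone passes in about 1 in 20 sets. These were CCNG1 with vorinostat at 6 h, with 1.02 in SUDHL4, BTG2 with vorinostat at 6 h, with 1.73 in TOLEDO, XPC with vorinostat at 6 h, with 1.08 in PFEIFFER, and PPM1D with vorinostat at 14 days, with -1.71 in SUDHL4.

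Drug effects at 14 days differed from those at 6 h by an interaction term in edgeR. With pracinostat the log2 differences were 1.09 for MDM4, -0.65 for PPM1D, -0.60 for CCNG1, -0.81 for DDB2 and -1.42 for POLH. With vorinostat they were 1.23 for MDM2, 0.97 for MDM4, -0.86 for PPM1D, 1.80 for BTG2, 1.01 for ZMAT3, -0.97 for SESN2, -1.79 for POLH and -0.65 for RRM2B. The vorinostat calls of MDM2 and RRM2B were each lost in 9 of 13 alternatives, and MDM2 stood at 0.75 without TOLEDO.

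Lines differed in their response by the F test of edgeR. At 6 h the adjusted p was 0.0111 for BTG2. At 14 days it was 0.000209 for MDM2, 0.0456 for PPM1D, 0.0237 for TP53INP1, 0.000145 for BTG2, 0.000689 for GADD45A, 0.0391 for NINJ1, 0.00447 for ZMAT3, 5.29e-05 for SESN1, 0.0257 for SESN2, 0.000407 for SESN3, 0.00304 for DDB2, 0.0190 for RRM2B and 0.00909 for FAS. BTG2 lost its 6 h call without TOLEDO. The 14 day calls of PPM1D, TP53INP1, NINJ1, SESN2, SESN3, RRM2B and FAS were each lost when some single line was left out.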

How the results depend on the processing

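Without the line as a block (no replicate block, the pairing being the cell line), the members called were 1 with pracinostat and 3 with vorinostat at 6 h, 0 with either drug at 14 days and 0 for either change between times; the cause was not tested. Leaving out each line in turn gave 12 to 15 members with pracinostat and 15 to 16 with vorinostat at 6 h, 2 (without PFEIFFER) to 6 with pracinostat and 6 (without SUDHL4) to 9 with vorinostat at 14 days, 2 to 5 and 3 to 6 for the changes between times, and 0 to 4 and 8 to 17 for differences among lines at 6 h and 14 days. Against the mean of both DMSO sets, pracinostat had 10 called members at 14 days and vorinostat 12. Scaling by library totals put the median log2 fold change of all genes at 0.13 with pracinostat at 6 h, against 0.03 with TMM, and at 0.01 with vorinostat at 14 days, against 0.12. Of 3367 values of single members under an alternative, 3149 kept their side of the threshold, 119 of them with a changed sign while called in neither, 172 lost a call and 46 gained one. No called member reversed under the alternatives run. With 1 library per line, treatment and time, depth and culture cannot be told apart from the line.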
